A study of Mus musculus with 11 samples.

Results

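The Pax family comprises 9 genes in the mouse, Pax1 to Pax9, and all 9 were found by symbol among the 34614 protein-coding and long noncoding genes of the RefSeq gene table. Pax2 and Pax8, the members with known roles in the kidney, were set against the other 7. RNA was read from the transcripts that carry a current RefSeq accession of each gene, and histone marks from the peaks at its outermost start (plus and minus 1 kb) and in its body. Cap mesenchyme (CM), the nephron progenitors, was sorted at E18.5 as Cited1-RFP+ cells of Cited1nuc-TagRFP-T reporter mice, of (C57BL/6 x DBA)F1 origin on a C57BL/6J background (N5). Ureteric epithelium (UE), the branching tube that forms the collecting ducts, was sorted at E15.5 as Hoxb7-GFP+ cells of Hoxb7myr-Venus/+ mice, of (C57BL/6J x CBA/J)F2 origin on C57BL/6J. The stem cells were E14, a wild-type 129/Ola embryonic stem cell (ES) line at passage 15. H3K4me3, a mark of active and poised promoters, and H3K27me3, the mark of Polycomb repression, were mapped in these 3 populations by native ChIP-seq. RNA came from metanephric mesenchyme (MM) and ureteric bud (UB), both manually separated at E11.5 from C57BL/6 wild-type kidneys, so the RNA tissues were younger than the sorted cells. The 3 input libraries were not analysed here. With 1 sample in every group, differences could not be set against replicate spread, and neither SDs nor p-values can be given. The number of animals pooled for a sample is not stated in the labels.

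Pax proteins are transcription factors that bind DNA through a paired domain, and each marks and specifies particular organs of the embryo. Pax2 and Pax8 act together in the nephric duct, the ureteric bud and the nephron, and kidneys do not form when both are lost. Pax3 and Pax7 specify muscle progenitors and neural crest, Pax1 and Pax9 the vertebral sclerotome and pharyngeal pouches, Pax4 and Pax6 pancreatic endocrine cells, with Pax6 also in eye and brain, and Pax5 B cells and the midbrain. Pax2 recruits H3K4 methyltransferases through the adaptor PTIP, encoded by Paxip1, and can instead recruit the corepressor Grg4, encoded by Tle4.

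The promoter sequences below, 5 of the 10 listed for the family, are examples at which the kidney and other Pax genes carried opposite marks. The Pax2 and Pax6 promoters not shown had the same marks in CM and UE as those shown. The listed promoters of Pax1, Pax7 and Pax9 were under both marks in CM and H3K27me3 alone in UE. They are RefSeq sequences on GRCm38.p6, written 5′ to 3′ on the gene's strand from 250 bases before a listed start, 300 bases in all, with CpG dinucleotides, the sites of DNA methylation, in capitals. The first is the outermost Pax2 promoter (chr19:44746351-44746650, plus strand), the second an inner Pax2 promoter (chr19:44756656-44756955, plus), the third Pax8 (chr2:24475550-24475849, minus), the fourth Pax5 (chr4:44710645-44710944, minus) and the last the outermost Pax6 promoter (chr2:105668646-105668945, plus).
Pax2 outermost: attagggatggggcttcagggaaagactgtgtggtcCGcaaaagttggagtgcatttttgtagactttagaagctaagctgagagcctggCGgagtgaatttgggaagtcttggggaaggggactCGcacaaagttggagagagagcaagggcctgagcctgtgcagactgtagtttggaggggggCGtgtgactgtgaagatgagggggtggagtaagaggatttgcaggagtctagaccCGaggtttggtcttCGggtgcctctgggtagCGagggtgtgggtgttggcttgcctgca
Pax2 inner: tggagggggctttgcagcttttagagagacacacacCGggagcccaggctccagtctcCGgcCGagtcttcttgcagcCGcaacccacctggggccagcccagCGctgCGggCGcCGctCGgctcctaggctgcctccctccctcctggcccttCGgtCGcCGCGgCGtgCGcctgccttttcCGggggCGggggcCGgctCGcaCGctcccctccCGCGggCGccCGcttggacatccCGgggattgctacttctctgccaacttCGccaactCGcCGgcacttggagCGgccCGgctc
Pax8: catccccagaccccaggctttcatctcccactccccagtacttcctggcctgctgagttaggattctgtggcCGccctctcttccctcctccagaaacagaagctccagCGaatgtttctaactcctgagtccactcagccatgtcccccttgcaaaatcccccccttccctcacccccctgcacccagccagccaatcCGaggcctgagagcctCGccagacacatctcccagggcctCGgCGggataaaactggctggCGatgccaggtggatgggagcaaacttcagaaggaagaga
Pax5: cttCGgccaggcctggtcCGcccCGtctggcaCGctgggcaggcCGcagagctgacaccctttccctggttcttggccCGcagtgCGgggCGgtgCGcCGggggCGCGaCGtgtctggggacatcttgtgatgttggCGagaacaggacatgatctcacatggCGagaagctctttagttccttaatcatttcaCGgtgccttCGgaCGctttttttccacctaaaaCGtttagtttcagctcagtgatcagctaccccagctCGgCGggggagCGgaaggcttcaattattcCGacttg
Pax6 outermost: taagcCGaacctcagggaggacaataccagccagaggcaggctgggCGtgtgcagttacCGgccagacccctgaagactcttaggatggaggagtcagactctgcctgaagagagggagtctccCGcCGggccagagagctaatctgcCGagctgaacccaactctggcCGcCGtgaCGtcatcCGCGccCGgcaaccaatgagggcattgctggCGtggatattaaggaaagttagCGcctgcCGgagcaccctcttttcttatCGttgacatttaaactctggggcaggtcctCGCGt
The first 3 stretches were wholly under H3K4me3 and free of H3K27me3 in CM and UE. The Pax5 and Pax6 stretches were wholly under H3K27me3 and free of H3K4me3 in the same populations. In ES cells all 5 were wholly under H3K4me3, and H3K27me3 covered 68.0% of the outermost Pax2 stretch and the whole of the other 4.

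The promoters of Pax2 and Pax8 did not share a high CpG content. The outermost Pax2 promoter and the Pax8 promoter held 7 CpG each, the median over 32851 promoters of the table, while the inner Pax2 promoters held 23 and 30. Pax5 had 23 CpG and the outermost Pax6 promoter 18. Over the 10 promoters of the 7 members in the table, the count ran between 7 and 30 and GC content between 46.3% and 71.7%, beside a median of 52.7% for all promoters. The TATA box TATAAA was in 0 of the 10 on either strand, beside 13.6% of all promoters. The GC box GGGCGG was in 6, beside 35.7% of all, and the CCAAT box CCAAT was in 3 (Pax1, Pax8 and the outermost of Pax6), beside 37.4%. The letters GCGTGAC, a core of the sequence that paired domains bind, were in 1 promoter, that of Pax1, beside 2.09% of all promoters. No 2 matches overlapped one another, and a match in this window is a description only.

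In the kidney populations the family fell into separate chromatin groups. Pax2 and Pax8 carried H3K4me3 without H3K27me3 at the start in CM and in UE. Pax1, Pax5 and Pax6 carried H3K27me3 without H3K4me3 at the outermost start in both, a call that for Pax5 in CM changed with a window of 2 kb each side. Pax3, Pax7 and Pax9 carried both marks in CM and H3K27me3 alone in UE. Pax4, a gene of pancreatic beta cells, had neither mark in any of the 3 populations, as did 38.6% of all genes. In ES cells the other 8 members all carried both marks, so Pax2 and Pax8 could not be told apart there from Pax1, Pax3, Pax5, Pax6, Pax7 and Pax9 by the presence of marks at the start.

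Counted over the family, H3K27me3 lay at 6 of 9 starts in CM, 6 in UE and 8 in ES cells. Over all genes it lay at 7.07% of starts in CM, 9.96% in UE and 9.74% in ES cells, so the family's shares were far above the background in each population. H3K4me3 lay at 5 of 9 starts in CM, 2 in UE and 8 in ES cells, beside 49.6%, 45.7% and 55.3% of all starts. Only the ES share stood well above its background, and the UE share was below it. The 2 starts with H3K4me3 in UE were those of Pax2 and Pax8. A mark counts as present here with at least 1 bp of a peak, and a sorted population can carry both marks at a start without their lying in the same cell.

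Of the 8 members with both marks in ES cells, 2 (Pax2 and Pax8) had H3K4me3 alone in CM and in UE, a combination shared by 36.2% of the 3116 genes with both marks in ES cells. The other 6 had H3K27me3 in both kidney populations, beside 34.5% of those genes. The combination seen at Pax3, Pax7 and Pax9, both marks in CM and H3K27me3 alone in UE, held at 3 of 9 members, against 1.16% of all genes. The H3K4me3 list was longer in CM (32992 peaks) than in UE (23958). With lists of equal length, 4 members instead of 5 had H3K4me3 at the start in CM. The count was also 4 where at least 50% of the window had to be covered.

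**Figure D1:**
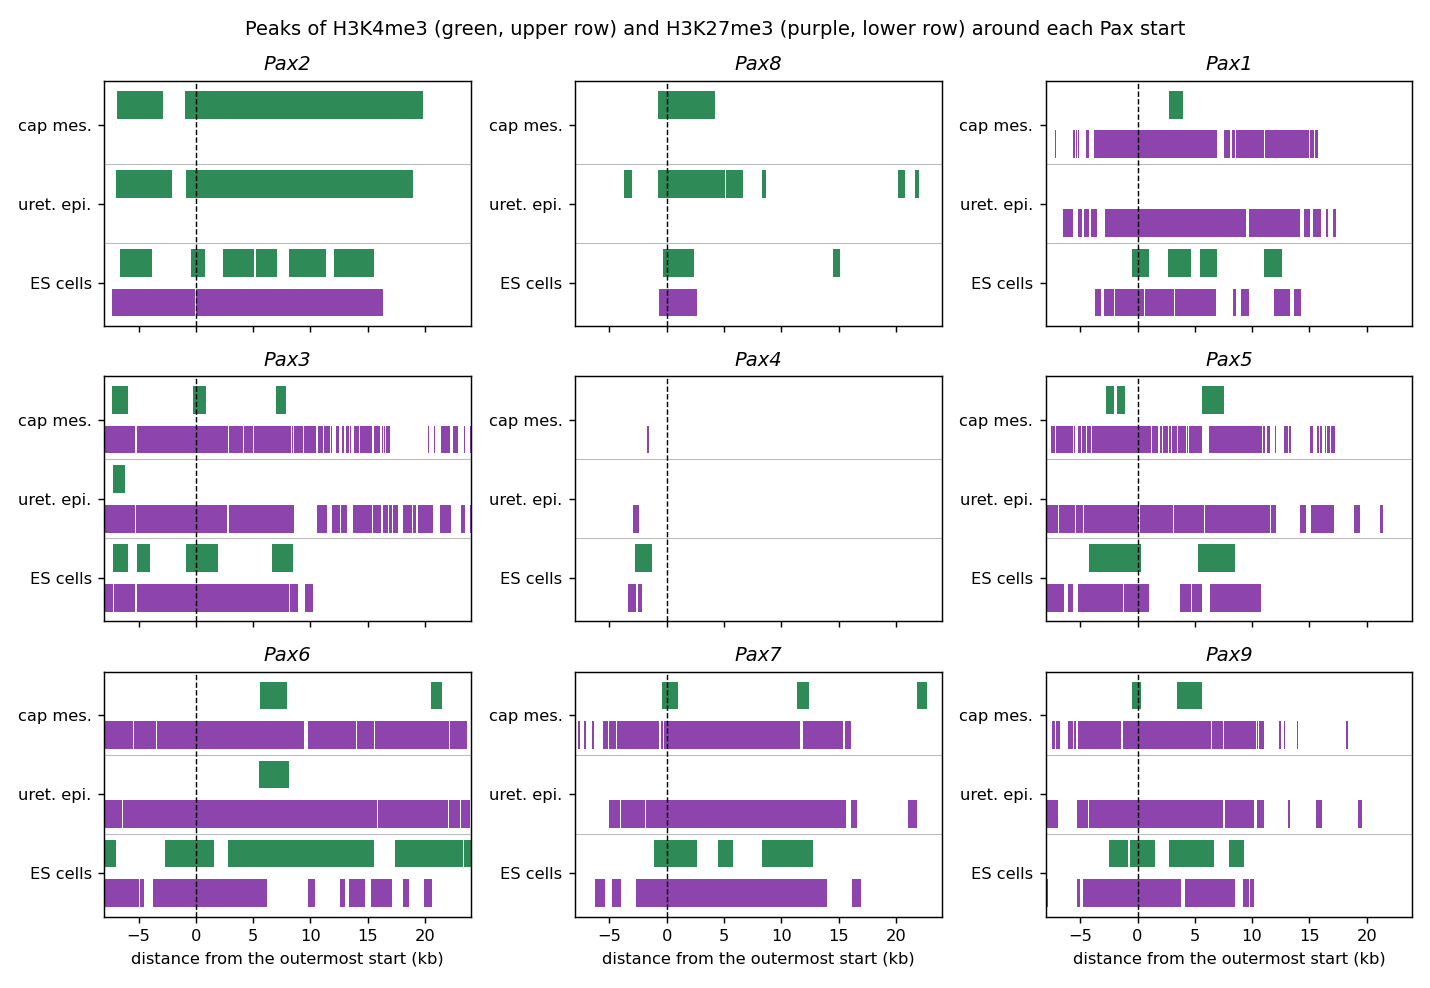
Peaks of H3K4me3 (green, upper of each pair) and H3K27me3 (purple, lower) in cap mesenchyme, ureteric epithelium and ES cells around the outermost start of each Pax gene, with distance from the start in kb on the x axis and the direction of transcription to the right. Pax2 and Pax8 have green bars alone in the kidney populations, the 6 other marked members have purple bars in all 3 populations, and Pax4 has no peak at its start.

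Pax2 (chr19:44746601-44838269 on mm10, plus strand, 91.7 kb) stood out by the breadth of its H3K4me3. The peak at its outermost start was 20.8 kb wide in CM, 19.9 kb in UE and 1.27 kb in ES cells. By width it ranked 7 among 32992 H3K4me3 peaks in CM and 4 among 23958 in UE. In CM it ran from 0.993 kb before the start to 19.8 kb inside the gene, and in UE from 0.904 kb before to 19.0 kb inside. The inner starts listed for Pax2, at 9.15 and 10.3 kb, lay within it. A second H3K4me3 peak of 3.996 kb in CM, 4.88 kb in UE and 2.80 kb in ES cells lay upstream, over the long noncoding RNA Gm35610, whose end is 3.89 kb from the Pax2 start and which had 0.265 FPKM in MM and 0.459 FPKM in UB.

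The marks at Pax2 were arranged differently in ES cells. There the H3K4me3 of the body came in 9 separate peaks, against 4 in CM and 1 in UE, and together they covered 21.8% of the body, close to the 25.04% in CM and 20.7% in UE. H3K27me3 covered 21.4% of the body in ES cells and 0% in CM and UE. Its widest ES peak ran from 0.042 to 16.4 kb inside the gene, 16.3 kb in all. Of the bases at Pax2 under H3K4me3 in ES cells, 69.4% were also under H3K27me3. The nearest H3K27me3 peak to the gene was 23.98 kb away in CM and 10.4 kb away in UE. Among 4211 protein-coding genes of like length (0.5 to 2 times its own), 99.93% had a lower share of the body under H3K4me3 than Pax2 in CM and 99.93% in UE, against 90.7% in ES cells.

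Pax8 (chr2:24420551-24475599, minus strand, 55.05 kb) had the same combination of marks at a smaller scale. Its H3K4me3 start peak was 4.97 kb wide in CM, 5.93 kb in UE and 2.66 kb in ES cells, wider than 98.2% of the CM list and 99.1% of the UE list. H3K4me3 covered 7.65% of the Pax8 body in CM, 14.4% in UE and 6.84% in ES cells, where 85.7%, 98.6% and 49.2% of 5890 coding genes of like length had a lower share. H3K27me3 was absent from the body in CM and UE, with the nearest peak 30.3 kb away in CM and 89.4 kb away in UE. In ES cells it covered 4.78% of the body and 65.3% of the H3K4me3 bases. The RNA locus of Pax8 reached 4.496 kb upstream of the annotated start. A small H3K4me3 peak lay there in UE, from -3.70 to -2.99 kb relative to the start, and none in CM.

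**Figure D2:**
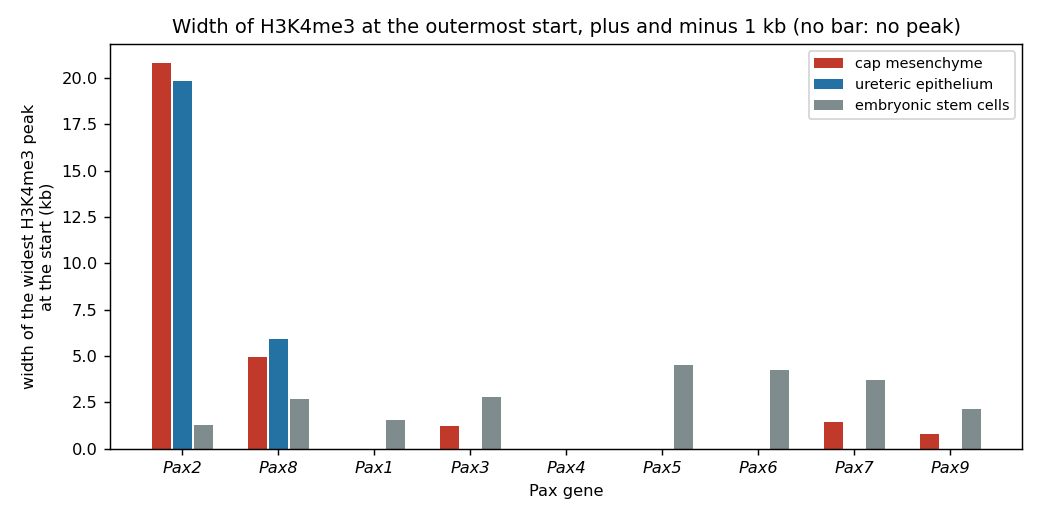
Width in kb of the widest H3K4me3 peak that touches the start of each Pax gene (plus and minus 1 kb) in cap mesenchyme, ureteric epithelium and ES cells, 1 peak list per bar. Pax2 reaches 20.8 kb in the cap mesenchyme list and 19.9 kb in that of ureteric epithelium, while in ES cells its start peak (1.27 kb) is narrower than those of the other marked members.

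In CM and UE, Pax2 and Pax8 lay above the median of the other 7 members for H3K4me3 and below it for H3K27me3, while in ES cells they lay on either side of it for both marks. The H3K4me3 share of the body in CM was 25.04% for Pax2 and 7.65% for Pax8, against a median of 3.62% (0 to 11.49%) for the other 7. The mean of Pax2 and Pax8 minus that median was 12.7 percentage points, though Pax8 lay below Pax1 (8.9%), Pax6 (11.3%) and Pax9 (11.49%). In UE the shares were 20.7% for Pax2 and 14.4% for Pax8, against a median of 0% (0 to 8.72%), and the mean difference was 17.6 percentage points. In ES cells Pax2 (21.8%) and Pax8 (6.84%) lay on either side of the median of 13.1% (0 to 72.3%). For H3K27me3 both were at 0% in CM and UE, against medians of 28.4% (0 to 92.1%) and 36.2% (0 to 97.5%) for the other 7. Pax4, among those 7, was also at 0% in CM and UE. In ES cells H3K27me3 was at 21.4% for Pax2 and 4.78% for Pax8, against a median of 17.7% (0 to 67.7%).

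Gene bodies under any H3K27me3 numbered 6 of 9 in CM, 6 in UE and 8 in ES cells, beside 23.8%, 30.3% and 12.9% of all genes. For H3K4me3 the counts were 8, 4 and 8, beside 57.2%, 51.7% and 64.9%. Long genes have more room for a peak, and the ES list of H3K27me3 held 12879 peaks of median width 657 bp, against 108394 of 195 bp in CM and 144362 of 281 bp in UE. Coverage is therefore compared between members within a population, and levels between populations depend on how much the authors called in each.

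**Figure D3:**
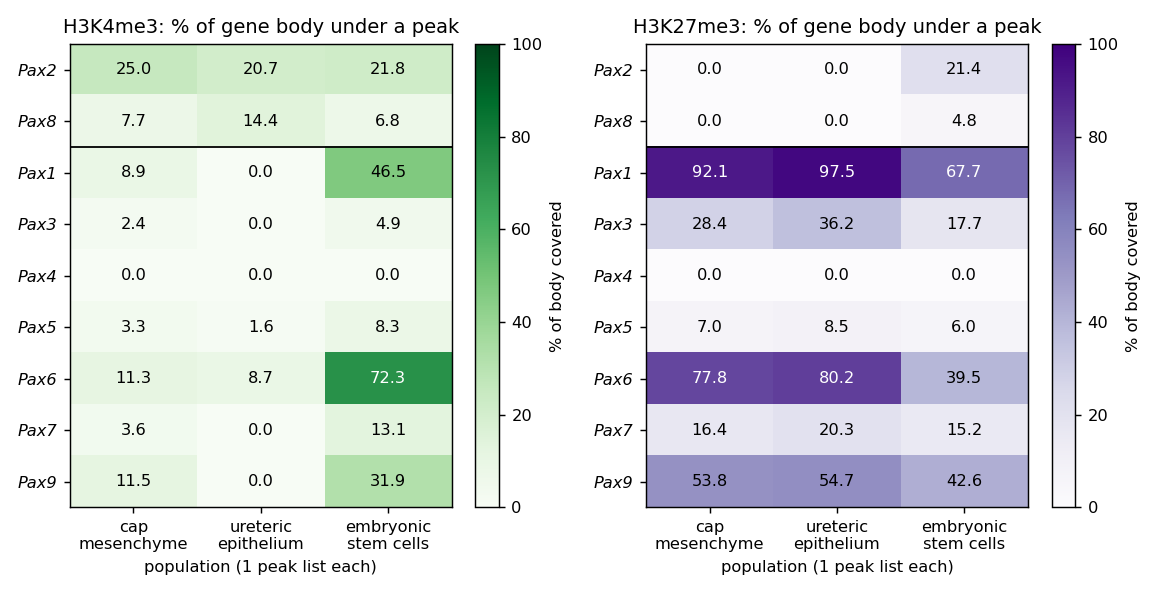
Share of each Pax gene body (in %, printed in each cell and on the colour scale) under H3K4me3 peaks (left) and H3K27me3 peaks (right) in cap mesenchyme, ureteric epithelium and ES cells, with Pax2 and Pax8 above the line. In the kidney columns Pax2, Pax8 and Pax4 are at 0% for H3K27me3, whereas Pax1 reaches 97.5% and Pax6 80.2% in ureteric epithelium.

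Pax1 and Pax6 had the most complete H3K27me3 in CM and UE, while in ES cells Pax9, at 42.6% of the body, stood above Pax6. In Pax1 (chr2:147361930-147375049, plus strand, 13.1 kb), which patterns the vertebral column and thymus, the mark covered 92.1% of the body in CM, 97.5% in UE and 67.7% in ES cells. An H3K4me3 peak of 1.17 kb lay around the inner start of Pax1, 3.06 kb into the gene, in CM and wholly within H3K27me3, so the call of H3K27me3 alone in CM holds for the outermost start. In UE no H3K4me3 peak lay in the gene. In Pax6 (chr2:105668896-105698410, plus strand), H3K27me3 covered 77.8% in CM, 80.2% in UE and 39.5% in ES cells, while H3K4me3 covered 11.3%, 8.72% and 72.3%. Every H3K4me3 base of Pax6 was under H3K27me3 in CM and UE, against 43.9% in ES cells. Elp4, whose 3′ end overlaps that of Pax6 and which encodes an Elongator subunit, had H3K4me3 alone at its own start in all 3 populations, with 2.499 FPKM in MM and 3.13 FPKM in UB. The antisense RNA Pax6os1, which overlaps the Pax6 start, was listed at 0 FPKM in both tissues.

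Pax3 and Pax7, the muscle and neural crest pair, and Pax9 held narrow H3K4me3 in CM inside broader H3K27me3. In CM their H3K4me3 start peaks were 1.21 kb (Pax3), 1.42 kb (Pax7) and 0.780 kb (Pax9) wide, against 2.78, 3.73 and 2.16 kb in ES cells and none in UE. Their H3K27me3 start peaks measured 7.92, 5.07 and 5.88 kb in CM, 7.95, 17.4 and 11.7 kb in UE and 13.3, 13.5 and 5.64 kb in ES cells. The share of H3K4me3 bases under H3K27me3 in CM was 80.0% for Pax3, 55.1% for Pax7 and 97.6% for Pax9. These 3 are the H3K4me3 calls that depend on lower-scored peaks: with only the upper 50% of each list by score, the count of members with H3K4me3 at the start in CM was 2, Pax2 and Pax8. Each score is the authors' own caller value. Pax3 lies at chr1:78101267-78197136, minus strand, Pax7 at chr4:139737059-139833530, minus, and Pax9 at chr12:56691693-56712824, plus.

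Pax5 (chr4:44524748-44710694, minus strand, 186 kb), the B cell regulator and the longest member, had H3K27me3 mostly near its start. The mark covered 6.96% of the body in CM, 8.48% in UE and 6.05% in ES cells, yet 99.0%, 99.0% and 97.8% of 2249 coding genes of like length had less. Inner H3K4me3 peaks lay 45.6 to 47.1 kb into Pax5 in CM and 45.7 to 47.1 kb in UE, and 151.8 to 153.1 kb in CM and 151.9 to 152.9 kb in UE, at positions that also held peaks in ES cells. Pax4 (chr6:28442334-28449340, minus strand, 7.0 kb) had no peak of either mark in its body. The nearest H3K27me3 peak to Pax4 was 1.58 kb away in CM, 2.44 kb in UE and 2.15 kb in ES cells, and all were narrow. An H3K4me3 peak of 1.47 kb lay 1.33 kb upstream of Pax4 in ES cells. With a window of 2 kb each side, Pax4 thus gained H3K4me3 in ES cells, where 9 of 9 members then carried it, and H3K27me3 in CM, where 7 did. In that window Pax5 gained H3K4me3 in CM, where 6 members then carried it, from a peak at -1.78 to -1.12 kb relative to its start. Pax5 then had both marks in CM and H3K27me3 alone in UE, the states of Pax3, Pax7 and Pax9.

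RNA of the family came almost wholly from Pax2 and Pax8. Levels are deposited FPKM, fragments scaled to transcript length and to the size of the library, summed over the transcripts of a gene. How library size was set is not stated. The read depth behind them is unknown. Pax2 had 9.53 FPKM in MM and 24.5 FPKM in UB, and Pax8 0.609 FPKM in MM and 4.57 FPKM in UB. Some transcripts at these loci carry accessions that the gene table no longer lists. With transcripts placed by locus added, Pax2 had 15.1 FPKM in MM and 41.1 FPKM in UB, and Pax8 4.41 FPKM in MM and 11.6 FPKM in UB. In bulk tissue, fewer cells that express a gene and less RNA per cell cannot be told apart.

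Together Pax2 and Pax8 made up 96.1% of the family's FPKM in MM and 98.2% in UB, or 97.9% and 99.0% with locus-placed transcripts. The other 7 summed to 0.413 FPKM in MM and 0.549 FPKM in UB. Pax3 had 0.0880 FPKM in MM and 0.490 FPKM in UB. Pax9 had 0.271 FPKM in MM and was listed at 0 in UB. Pax6, Pax5 and Pax7 were below 0.04 FPKM in each tissue, with Pax5 listed at 0 in UB and Pax7 in MM. Pax1 and Pax4 were listed at 0 in both. By accession, a level of 1 FPKM was reached by 1 of 9 members in MM and by 2 in UB, beside 32.7% and 34.2% of the 30937 genes with an RNA value. With locus-placed transcripts it was reached by 2 of 9 members in each, Pax2 and Pax8, beside 34.0% of genes in MM and 35.1% in UB.

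**Figure D4:**
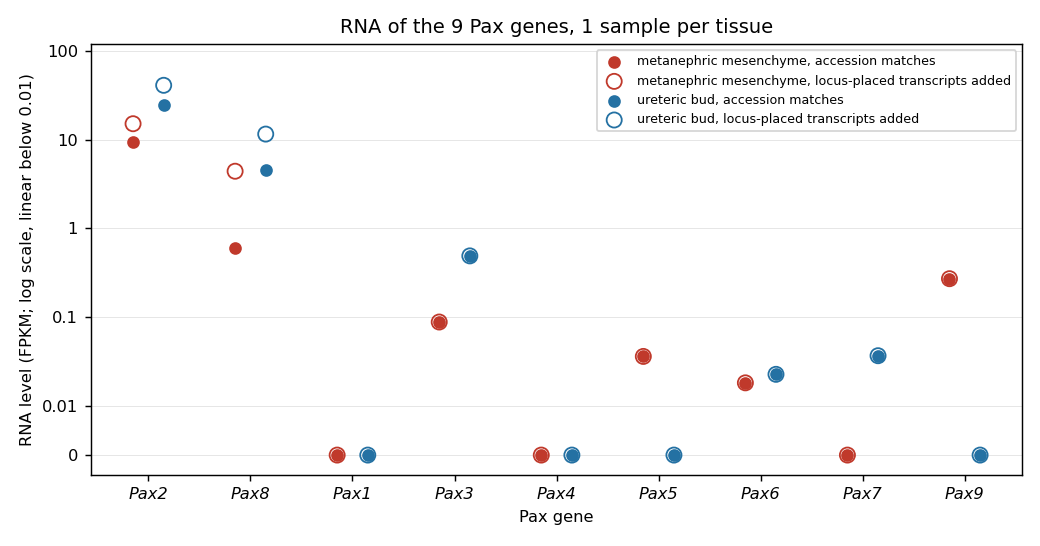
RNA level in FPKM (log scale, linear below 0.01) of the 9 Pax genes in metanephric mesenchyme (red, left of each pair) and ureteric bud (blue, right), 1 sample each; filled points sum the transcripts matched by accession and open rings add those placed by locus. Only Pax2 and Pax8 exceed 1 FPKM, and both are higher in ureteric bud.

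Pax2 and Pax8 were both higher in UB. On the log2(FPKM + 1) scale, which understates changes of low genes, the difference of MM minus UB was -1.28 for Pax2 and -1.79 for Pax8. With locus-placed transcripts it was -1.38 and -1.22, so the order of the 2 differences depended on which transcripts were counted. Among 9366 genes with at least 1 FPKM in each library the median was -0.46, so part of each value is shared by the whole table. Of the 11319 genes at 1 FPKM or more in either library, 10.9% had a lower difference than Pax2 and 5.31% a lower one than Pax8. Setting both libraries to the same median shifted the genes by a median of 0.50. The difference was then -0.74 for Pax2 and -1.35 for Pax8, or -0.84 and -0.71 with locus-placed transcripts. A gene was called 4-fold different at a log2 difference of 2 where the higher tissue had 2 FPKM or more. By this rule 0 of 9 members were higher in MM and 0 in UB, beside 1.92% and 4.24% of those 11319 genes. The count in UB rests on the pseudocount: by accession the Pax8 level in UB was 7.51 times that in MM, and with a pseudocount of 0.1 or 0.01 FPKM 1 member, Pax8, was called higher in UB. With locus-placed transcripts the Pax8 level in UB was 2.62 times that in MM, and the count was 0.

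The leading Pax2 transcripts were all higher in UB, whereas those of Pax8 differed in direction. In the authors' deposited table, the 3029-base Pax2 transcript had 9.53 FPKM (interval 5.49 to 13.6) in MM and 24.5 FPKM (13.8 to 35.3) in UB. The 2671-base Pax2 transcript had 1.85 FPKM (0.668 to 3.03) in MM and 7.06 FPKM (4.44 to 9.68) in UB in the authors' deposited table, so the intervals did not overlap for either. The authors' deposited table marks 6 of the 18 Pax2 transcripts at the locus, these included, as having too little data for a full estimate, and 0 of the 7 of Pax8. For Pax8, the authors' deposited table gave the 2357-base transcript 1.42 FPKM (0.636 to 2.20) in MM and 6.998 FPKM (5.19 to 8.81) in UB. The 2360-base and 2474-base Pax8 transcripts went the other way in the authors' deposited table, with 1.20 and 1.18 FPKM in MM, both listed at 0 in UB. These intervals are the authors' own, the number of libraries behind each column is not stated, and they are not used here as a spread between animals, and transcripts that share most exons divide the same reads.

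The dissected tissues were separated well by marker genes of each. Ureteric markers (Ret, Hoxb7, Wnt11, Calb1, Cdh1, Epcam) summed to 13.5 FPKM in MM and 2124.4 FPKM in UB, with 6 of 6 more than 4-fold higher in UB. Nephron progenitor markers summed to 160.2 FPKM in MM and 10.4 FPKM in UB, with 5 of 6 more than 4-fold higher in MM and Cited1 at 2.78 FPKM in MM and 8.35 FPKM in UB. Stromal markers (5 of 5 higher, 222.8 FPKM in MM and 1.502 FPKM in UB) and endothelial ones (3 of 5 higher, 28.4 FPKM in MM and 3.09 FPKM in UB) had higher sums in MM. Early nephron markers, 3 of 6 of them more than 4-fold higher in UB, summed to 8.62 FPKM in MM and 90.4 FPKM in UB. The part of this makeup in the Pax2 and Pax8 differences was not tested. Skeletal muscle markers summed to 0.0297 FPKM in MM and 0 in UB, where Myf5, Myod1 and Myf6 were listed at 0 in both tissues. In the chromatin, the stem cell markers Pou5f1, Nanog and Zfp42 had H3K4me3 in ES cells and not in CM or UE, while Esrrb had neither mark in any population. Tdgf1, the other stem cell marker, had H3K4me3 alone in ES cells, both marks in CM and H3K27me3 alone in UE. Cited1, the CM reporter gene, had H3K4me3 alone in CM and in UE. Hoxb7, whose promoter drives the UE reporter, had neither mark at its outermost start in UE, Cdh1, Wnt11 and Epcam had both marks there, and Epcam had H3K4me3 alone in CM. H3K4me3 lay at 1 of 5 endothelial marker starts in CM, 5 in UE and 3 in ES cells, beside 49.6%, 45.7% and 55.3% of all starts. The part of endothelial cells in the UE marks was not tested.

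Most of the listed genes that work with Pax2 and Pax8 in the kidney differed more than 4-fold between the tissues. Of 25 genes upstream of, beside or downstream of Pax2, 9 were more than 4-fold higher in MM and 12 in UB. The shares over the 11319 genes at 1 FPKM or more in either library were 1.92% and 4.24%. These counts depend on how the list was made. Several of its genes, among them Six2, Osr1, Gdnf, Eya1, Ret and Wnt11, also serve here as tissue markers. The list was also chosen with earlier results of these data known. The list's median difference was 1.42. Among those higher in MM were Eya1, a partner of Six2 in progenitors, with 52.5 FPKM in MM and 0.271 FPKM in UB, and Gdnf, the growth factor secreted by the mesenchyme that attracts the bud, with 10.8 FPKM in MM and 0.0752 FPKM in UB. Ret, the Gdnf receptor, had 0.341 FPKM in MM and 72.8 FPKM in UB, and Gata3, a transcription factor downstream of Pax2 in the nephric duct, 0.529 FPKM in MM and 40.8 FPKM in UB. Wnt4, Fgf8 and Sfrp2 had differences between 1.42 and 1.72, short of the 4-fold rule on this scale. Wnt4 had 4.12 FPKM in MM and 0.552 FPKM in UB, a low level at which the pseudocount counts, and with a pseudocount of 0.1 the list had 11 genes higher in MM. Pax2 and Pax8, at -1.28 and -1.79, lay inside the range that these 25 genes left free around 0.

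**Figure D5:**
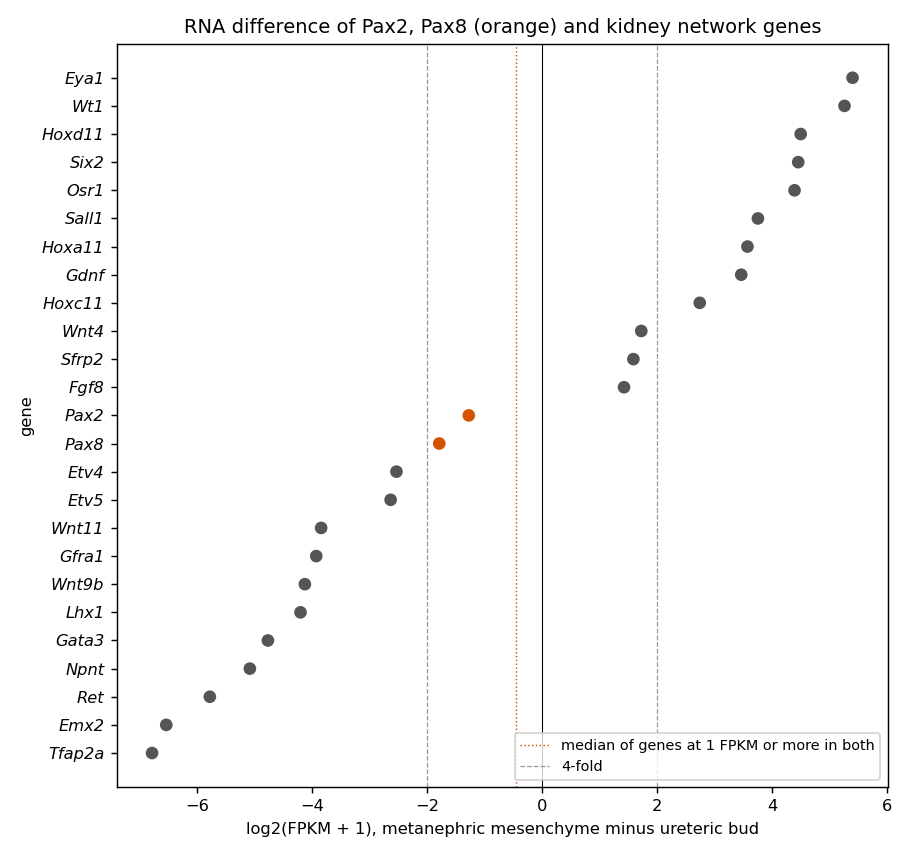
Difference in log2(FPKM + 1), metanephric mesenchyme minus ureteric bud, of Pax2 and Pax8 (orange) and genes of the kidney network (grey; 2 of the 25 are not shown), 1 sample per tissue, with dashed lines at 4-fold and a dotted line at -0.46, the median of genes expressed in both. Pax2 (-1.28) and Pax8 (-1.79) lie between the dashed lines, and network genes lie beyond them on both sides.

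Many of these network genes also carried unlike marks in the kidney populations. The state at the start was unlike in CM and UE for 14 of the 25, against 12.2% of all genes, whereas Pax2 and Pax8 had the same state in both. This count too depends on how the list was made. Six2, Osr1, Wt1, Hoxa11 and Hoxd11 had H3K4me3 alone in CM and both marks in UE, and Lhx1 and Emx2 had both marks in CM and H3K4me3 alone in UE. Marks and RNA did not always point to the same side. The RNA is of whole tissue at E11.5, whereas the marks are of cells sorted at E18.5 (CM) and E15.5 (UE). The part of age and cell makeup in these mismatches was not tested. Gfra1 (10.6 FPKM in MM and 176.4 FPKM in UB) also had H3K4me3 alone in CM and both marks in UE. Wnt9b, listed at 0 in MM and at 16.5 FPKM in UB, had both marks in CM and H3K27me3 alone in UE. Wnt4, higher in MM, had both marks in CM and H3K4me3 alone in UE. Gata3 and Tfap2a, higher in UB, had H3K27me3 alone in CM and both marks in UE. Of the 25, 19 had both marks in ES cells, and 2 of those 19, Gdnf and Ret, had H3K4me3 alone in CM and in UE, beside the 36.2% of all genes with both marks in ES cells. Pax2 and Pax8 shared that sequence of states with these 2.

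The cofactors through which Pax proteins act on chromatin were expressed in both tissues. Of 18, including Paxip1, the methyltransferase genes Kmt2b, Kmt2c and Kmt2d, and the corepressors Tle1 to Tle4, 0 were more than 4-fold higher in either tissue. The shares over the 11319 genes at 1 FPKM or more in either library were 1.92% for MM and 4.24% for UB. The median difference of the 18 was -0.25. Paxip1 had 2.20 FPKM in MM and 2.15 FPKM in UB, or 12.3 and 14.9 FPKM with locus-placed transcripts. Tle4 had 7.10 FPKM in MM and 9.07 FPKM in UB. Prmt5, an arginine methyltransferase, had the lowest difference of the list, at -1.28, with 18.46 FPKM in MM and 46.1 FPKM in UB. H3K27me3 lay at 0 of 18 starts in CM, UE and ES cells, where only 7.07%, 9.96% and 9.74% of all starts had it. H3K4me3 lay at 16, 16 and 17 of the 18, beside 49.6%, 45.7% and 55.3% of all starts.

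Partners of the other Pax genes in their own lineages were mostly below 1 FPKM. Of 20, 4 reached 1 FPKM in either tissue, beside 11319 of the 30937 genes with an RNA value. Of these 4, 3 were more than 4-fold higher in MM, beside 1.92% of those 11319 genes. They were Meox1 (18.6 FPKM in MM and 0.102 FPKM in UB), Uncx (19.2 FPKM in MM, listed at 0 in UB) and Ebf1 (4.12 FPKM in MM and 0.0522 FPKM in UB). Meox1 and Uncx also act in the somites. Myf5 and Myod1, muscle regulators downstream of Pax3 and Pax7, were listed at 0 in both tissues, as were Ins1, Ins2 and Gcg, which encode insulin and glucagon. H3K27me3 lay at 9 of the 20 starts in CM, 10 in UE and 10 in ES cells, beside 7.07%, 9.96% and 9.74% of all starts. H3K4me3 lay at 12 starts in CM, 6 in UE and 13 in ES cells, beside 49.6%, 45.7% and 55.3% of all starts.

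The genes flanking the family did not all share its marks. Psd4, 10.7 kb from Pax8, had H3K4me3 alone in CM and UE and both marks in ES cells, the states of Pax8 itself, with 0.0587 FPKM in MM and 1.14 FPKM in UB. At Pax7, the long noncoding RNA Gm46873, which overlaps the start on the other strand, was listed at 0 in MM and had 1.64 FPKM in UB, while Pax7 had 0.0367 FPKM in UB. The sources do not state whether strand was used in counting, so reads where they overlap cannot be told apart. Melk and Zcchc7, which flank Pax5, had H3K4me3 alone in all 3 populations.

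By coverage of the body plus and minus 1 kb with both marks in the 3 populations, the coding genes of like length nearest to Pax2 were Bcor, at a Euclidean distance of 15.3 percentage points, and Igdcc3, at 21.4, where the median of 4211 genes was 39.4. Bcor, a corepressor of a Polycomb complex, had 21.8% of this stretch under H3K4me3 in CM, 18.0% in UE and 27.7% in ES cells, with H3K27me3 at 0.115%, 0% and 8.35%. Nearest to Pax8 among 5890 genes were Map3k21, at 4.13 percentage points, and Cav1, the gene of caveolin, at 5.81, where the median was 15.47. Map3k21 had 0.0465 FPKM in MM and 9.78 FPKM in UB, and Cav1 0.893 FPKM in MM and 0.688 FPKM in UB. The likeness rests on 6 values from libraries that all these genes share.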

How the data were processed

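The 6 peak lists and the RNA table are the authors' deposited files. Per the submitters' processing notes, Bowtie2 and MACS made the peaks and TopHat, Cufflinks and Cuffdiff the RNA values, on mm10. Versions, settings and the control behind each peak list are not stated in the labels. RNA values are the authors' deposited FPKM per transcript, kept on their deposited scale. How the libraries were scaled to each other is not stated. They were summed per gene over accession matches, with a pseudocount of 1 FPKM for log2 differences. Peak scores are deposited values of the authors' caller, used within a list, and across lists only as an alternative minimum. Per the labels' protocols, antibodies were Abcam ab8580 (H3K4me3) and an Active Motif antibody (H3K27me3) on MNase-digested native chromatin, and RNA libraries were SMARTer Stranded Total RNA.

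Gene positions came from the RefSeq table (coordinates counted from 1). Strand was taken from the promoter table for 27025 genes, Pax3 and Pax4 excepted, and from locus order in the RNA table for 5702. At 24067 of 24067 loci with both, they matched. The boundary between strands in the locus order of each chromosome was fitted at these same loci, so the match is not a separate check. The 1887 genes with no strand used both ends. A promoter entry was found for 7 of 9 members. With 1 sample a group, members are described by counts and medians beside those of all genes, with no test. Read depth behind peaks and FPKM is unknown, so no interval can be given. Genes named are the 9 members, listed or neighbouring genes with a 4-fold RNA difference or unlike states in CM and UE, and the nearest patterns. Others, such as cofactors, were named for their role after their values were seen. Single values of 2 listed network genes are not reported here. The members and lists were chosen with earlier results of these data known. Computation used Python 3.11.15, pandas 2.3.3 and numpy 2.4.6 and was tested on simulated data. All sample columns mapped to a sample. Alternatives for peak score, overlap, window, start, pseudocount, scaling and transcript placement were tried.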

Additional observations from a re-analysis of the deposited data

How the results depend on the processing

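Among the main values of the comparisons, recomputed under each alternative, 137 stayed within 1.5 times of the value reported (in fold, for log2 differences) and 16 moved. The Pax2 difference stayed within that limit at -0.74 with the same median and -0.70 with the same total over coding genes, against -1.28. Some of the 137 could not move by construction, so the tally overstates stability. A score of at least 50 removed no H3K4me3 peak, because no H3K4me3 list held a lower score. Lists of equal length left the shortest list of each mark as it was. Pax2 had 1 accession-matched transcript, so taking the most abundant one could not change its values. Keeping the upper 50% of each list by score left H3K4me3 at the start of 2 members in CM. The mean body coverage of Pax2 and Pax8 minus the median of the other 7 in ES cells, 1.24 percentage points for H3K4me3 and -4.63 for H3K27me3, became 2.61 and -2.41 with that upper 50%, 3.43 for H3K4me3 with lists of equal length and -2.81 for H3K27me3 at a score of at least 50. Adding locus-placed transcripts moved Pax2 to 15.14 FPKM in MM and 41.05 in UB, and Pax8 to 4.412 in MM and 11.57 in UB. By the most abundant accession-matched transcript, chosen by its sum over both libraries, Pax8 had 0.000587 FPKM in MM and 3.462 in UB. By that choice 1 member, Pax8, was 4-fold higher in UB. It was also called with pseudocounts of 0.1 and 0.01, a count added after seeing the data. The 2357-base Pax8 transcript, placed by locus and so left out of that choice, had more RNA, with 1.42 FPKM in MM and 6.998 in UB. The Pax8 difference was -2.72 and -2.89 with pseudocounts of 0.1 and 0.01, and -0.71 with locus-placed transcripts and the same median, the last chosen after seeing the data. The Pax6 difference, -0.01, turned to 0.004006 at the same median, 0.004669 at the same total over coding genes and 0.003903 with locus placement and the same median; its levels are near 0 in both tissues. The cause of these changes was not tested beyond what each alternative does by construction. No paired analysis was possible because each group holds 1 sample and no test was run; for the same reason no sample could be left out. A gene has 1 outermost start here, and with every listed start the count of members with H3K4me3 in CM was 6, Pax1 added.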
